A study of Mus musculus with 6 samples.

Results

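The vascular growth factor genes described here are the ligands Vegfa, Vegfb, Vegfc and Pgf of the vascular endothelial growth factor (VEGF) family, the angiopoietin ligands Angpt1 and Angpt2, and the neuropilins Nrp1 and Nrp2. Every probe set whose gene symbol in the platform annotation was 1 of these 8 was taken, which gave 19 of the 45101 probe sets on the array and 8 of the 18193 genes named on it. RNA of 6 mouse samples had been hybridised to 1 array each. 3 samples were granulosa cell tumors from Smad1/5/8 mutant mice, which the labels describe as untreated; how the Smad genes were mutated, and what strain, age and sex these mice were, the sources used here do not give. The other 3 were isolated granulosa cells, the somatic cells around the oocyte, from wild-type C57BL/6J;129S5/SvEvBrd females aged 21 days. These females had received pregnant mare serum gonadotropin (PMSG), which drives follicle growth, 44 to 46 hours before collection, and each sample pooled 2 to 3 of them. Tumor tissue was thus set against isolated cells of primed mice, and the arrays of the tumors and of the wild-type cells were read with different software, so mutation, tissue make-up, priming and processing cannot be told apart.

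VEGF ligands bind receptor tyrosine kinases on endothelial cells and drive the sprouting and permeability of blood vessels, while angiopoietins act through the receptor Tek: Angpt1 activates it and Angpt2 mostly opposes Angpt1. Neuropilins are co-receptors without kinase activity that bind both VEGF ligands and class 3 semaphorins, and they are also found on cells other than endothelium. In the ovary the granulosa layer has no vessels of its own before ovulation, and growing follicles make VEGF, which supports the capillaries of the theca around them.

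The neuropilins were higher in the tumors, Nrp2 by 9.52-fold and Nrp1 by 2.52-fold on the log2(signal + 32) scale, and their 3 tumor values lay above all 3 wild-type values. None of the 5 tested ligand genes passed the test. Vegfa and Angpt2 had lower signals than the wild-type mean in tumor replicates 1 and 3, while tumor replicate 2 lay inside the wild-type range of Angpt2 and above that of Vegfa. Vegfb, Vegfc and Angpt1 had overlapping groups, and Pgf was below a signal of 100 on 5 of the 6 arrays. A probe set passed the filter with 3 or more arrays at a signal of 100 or higher, and a gene was tested through the brightest of its probe sets that passed. 7 of the 8 genes were tested this way, and 16 of the 19 probe sets passed. A gene was called where the p-value of limma, adjusted by Benjamini and Hochberg over the 11611 genes tested, was under 0.05. By that measure 2 of the 7 were higher and 0 lower, where 14.5% and 12.6% of all genes tested were called higher and lower. All tumors lay above all wild-type samples at 2 of the 7 and below them at 0, where 23.7% and 22.6% of all genes tested did. At an unadjusted p under 0.05, 2 were higher and 1, Angpt2, was lower. The median log2 fold change of the 7 was 0.10, beside -0.0049 over all genes tested.

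**Figure D1:**
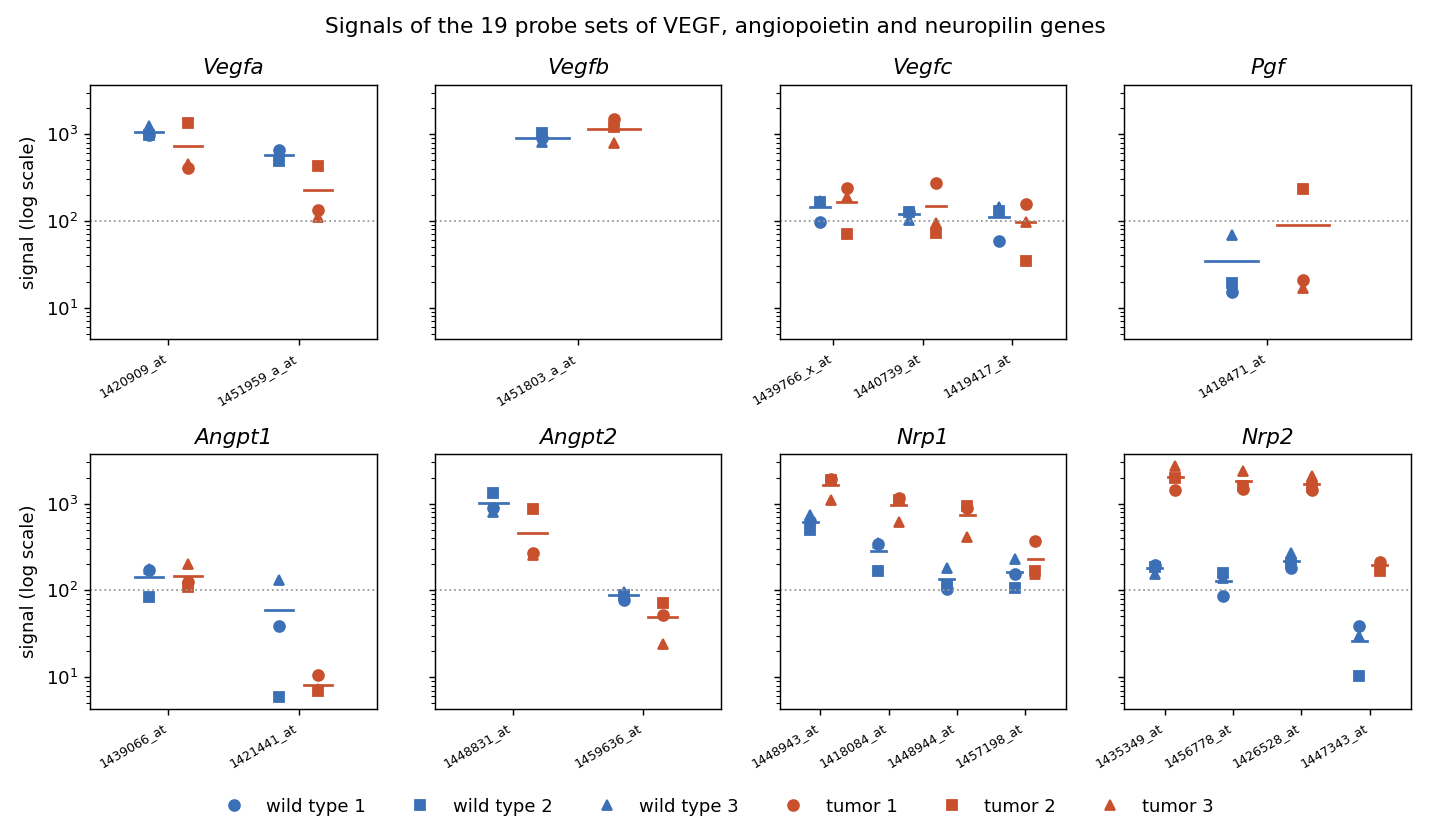
Signals (log axis) of the 19 probe sets on each array, wild-type samples in blue and tumors in orange, with a bar at each group's mean over 3 samples and a dotted line at the signal of 100 used as a minimum. The tumor and wild-type points of all 4 Nrp2 probe sets and of 3 of the 4 Nrp1 probe sets are apart, while tumor replicate 2 (square) lies above the other tumors at both Vegfa and both Angpt2 probe sets.

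An array of the series had 22599 to 25049 probe sets at or above a signal of 100. Of the granulosa markers, 3 of 9 tested genes were called lower in the tumors and 1 higher, beside 12.6% and 14.5% of all genes tested. The summed signal of these markers was 112681 to 125740 in wild-type samples and 59709 to 74379 in tumors. Inhba, an inhibin and activin subunit gene, and Fshr, the follicle-stimulating hormone receptor gene, were lower, at -5.42 and -3.23 on the log2 scale. Amh, the anti-Müllerian hormone gene, was higher by 2.00, a call lost without any 1 sample other than wild-type replicate 2 (limma adjusted p up to 0.133). For Actb, the 3' control probe set exceeded the 5' one, a measure of RNA integrity, by a log2 value of 0.447 ± 0.193 (SD, n = 3) in wild-type cells and of 0.808 ± 0.209 in tumors. The same measure for Gapdh was close in the groups, at -0.391 ± 0.065 in wild-type cells and -0.365 ± 0.113 in tumors. The part of RNA integrity in the results below was not tested. In such bulk samples, fewer cells of a type and less RNA per cell cannot be told apart, and the precision of every value is limited by 3 arrays per group.

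Nrp2, the neuropilin best known as a co-receptor for VEGF-C and for semaphorin 3F, had the largest change among these genes. Its brightest probe set, 1435349_at, read 198, 186 and 156 in wild-type replicates 1 to 3 and 1432, 1988 and 2717 in tumor replicates 1 to 3. The lowest tumor was thus far above the highest wild-type sample. The means were 180 ± 21.8 (SD, n = 3) and 2046 ± 644, a log2 difference of 3.25 (SE 0.24, 95% interval 2.68 to 3.82, limma adjusted p = 0.000408). By absolute log2 fold change it ranked 70 among the 11611 genes tested. The other 3 Nrp2 probe sets gave the same picture. Probe set 1456778_at read 86.2, 158 and 139 against 1464, 1613 and 2378 (log2 difference 3.53, SE 0.26). Probe set 1426528_at read 179, 207 and 268 against 1427, 1571 and 2058 (log2 difference 2.78, SE 0.21). All of these were lowest in tumor replicate 1 and highest in tumor replicate 3. The dimmest, 1447343_at, read 38.4, 10.2 and 29.8 against 210, 167 and 210. No wild-type array reached 100 there, and it passed the filter through the tumors alone. Against wild-type arrays set to 100 it was at least 1.94-fold higher.

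Nrp1, a co-receptor for VEGF-A and semaphorin 3A that is found on endothelium, mesenchymal cells and some myeloid cells, was also higher, by a smaller fold than Nrp2. Its brightest probe set, 1448943_at, read 636, 494 and 730 in wild-type samples and 1915, 1882 and 1112 in tumors. Tumor replicate 3 was the lowest for Nrp1 and the highest for Nrp2, yet all 3 tumors exceeded all wild-type samples at both genes. The log2 fold change of Nrp1 was 1.33 (SE 0.25, 95% interval 0.73 to 1.93, limma adjusted p = 0.0103), from 620 ± 118 (SD, n = 3) to 1637 ± 454. Probe set 1418084_at read 339, 168 and 355 against 1175, 1114 and 615. Probe set 1448944_at read 103, 117 and 181 against 880, 949 and 417, the largest change of the 4 at a log2 difference of 2.18 (SE 0.33). At all 3 of these Nrp1 probe sets the groups were apart and tumor replicate 3 was the lowest tumor. The remaining probe set, 1457198_at, read 156, 107 and 229 against 369, 165 and 154, with overlapping groups and a log2 difference of 0.37 (SE 0.35, limma adjusted p = 0.478 over the probe sets).

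With every passing probe set tested on its own, 7 of the 16 were called higher and 1 lower, where 11.7% and 12.4% of the 21001 probe sets tested were. Without the probe sets that passed the filter through the tumors alone, 6 of 15 were higher, where 10.3% of 20601 were. The 7 called higher belong to Nrp1 and Nrp2 alone, and probe sets of a gene measure the same transcripts, so they are no independent support. All 3 tumors lay above all 3 wild-type samples at 7 of the 16 and below them at 1, as they did at 20.9% and 23.5% of the 21001 probe sets tested. Of the 3 probe sets that did not pass, Angpt2 1459636_at had all tumors below all wild-type samples. The log2 difference of Nrp2 to Nrp1 on the same array was -1.54, -1.27 and -2.02 in wild-type samples and -0.41, 0.08 and 1.26 in tumors. The tumor and wild-type values did not overlap, and the group means differed by 1.92 on the log2 scale (exact permutation test, 2-sided, p = 0.1, the smallest that 3 against 3 samples allow). Scaled to the bacterial hybridisation controls, the median log2 fold change of all genes was -1.0; Nrp2 was still called higher there (2.28) while Nrp1, at 0.32, was not (limma adjusted p = 0.425).

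**Figure D2:**
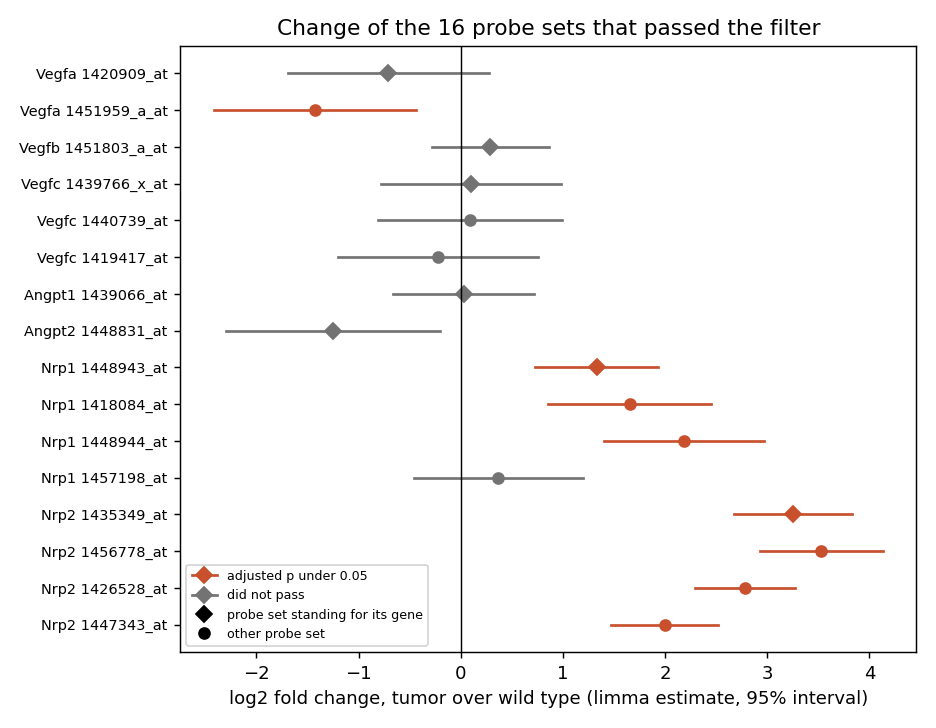
Log2 fold change of tumors over wild-type samples (n = 3 each) with its 95% interval for the 16 probe sets that passed the filter; colour shows whether the adjusted p of the probe-set fit was under 0.05, and diamonds mark the probe sets that stood for their genes. The Nrp2 probe sets lie between 2.00 and 3.53, 3 of the 4 Nrp1 probe sets between 1.33 and 2.18, and Vegfa and Angpt2 on the other side of 0.

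Promoter windows from RefSeq (build GRCm38.p6), each from 250 bases before to 50 bases after a start site, matched 6 of the 8 genes: Vegfa and Pgf with 2 windows each, and Vegfb, Vegfc, Nrp1 and Nrp2 with 1 each. Those of Nrp1 and Nrp2, which rose, are shown to compare their base composition and motifs, and the upstream window of Vegfa is shown because Vegfa is the textbook target of hypoxia-inducible factors (HIF). Capitals mark the core of the HIF binding motif, which is ACGTG with a variant GCGTG, on either strand. The windows are Nrp1 at chr8:128358823-128359122 on the plus strand, Nrp2 at chr1:62703067-62703366 on the plus strand and Vegfa at chr17:46032328-46032627 on the minus strand, each written 5′ to 3′ along the gene.
Nrp1: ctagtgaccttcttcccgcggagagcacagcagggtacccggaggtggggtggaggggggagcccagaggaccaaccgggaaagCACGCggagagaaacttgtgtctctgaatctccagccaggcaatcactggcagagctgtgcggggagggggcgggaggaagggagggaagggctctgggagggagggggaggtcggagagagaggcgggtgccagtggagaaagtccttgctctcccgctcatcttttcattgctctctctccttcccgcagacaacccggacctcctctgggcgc
Nrp2: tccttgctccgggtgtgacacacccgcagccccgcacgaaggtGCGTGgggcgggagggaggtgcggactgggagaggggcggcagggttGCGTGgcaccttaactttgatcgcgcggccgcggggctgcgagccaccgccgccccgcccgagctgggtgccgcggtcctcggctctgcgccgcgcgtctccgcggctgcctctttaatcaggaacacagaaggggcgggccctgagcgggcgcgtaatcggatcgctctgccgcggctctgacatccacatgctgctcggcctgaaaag
Vegfa: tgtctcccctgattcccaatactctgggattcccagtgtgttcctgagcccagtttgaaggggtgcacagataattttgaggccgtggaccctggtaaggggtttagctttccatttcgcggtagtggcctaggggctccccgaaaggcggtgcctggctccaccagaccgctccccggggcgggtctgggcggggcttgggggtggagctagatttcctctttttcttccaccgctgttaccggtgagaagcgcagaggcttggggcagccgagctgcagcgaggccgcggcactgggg

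The G and C content of these windows was 64.0% for Nrp1, 70.7% for Nrp2 and 62.0% for Vegfa, above the median of 52.7% over all 32851 promoter windows. Nrp1 held 14 CpG dinucleotides and Nrp2 held 37. The HIF core stood 1 time in Nrp1, at position -166 from the start site, and in Nrp2 at positions -207 and -160. The Vegfa window shown held none, while the other Vegfa window, which lies downstream of it along the gene at chr17:46025114-46025413, held 2. Of the 8 windows, 5 held a core, the downstream Vegfa window among them, and 43.8% of all windows did. Motifs of BMP-regulated Smads and of Gli were searched on both strands. The Smad motif GGCGCC was not in the 3 windows shown, and 11.9% of all windows held it. The Smad motif GGAGCC stood 1 time in Nrp1, 2 times in Vegfa and 0 times in Nrp2, and 30.8% of all windows held it. The Gli motif TGGGTGGTC was in 0 of the 8 windows, and 0.253% of all windows held it. A match of letters describes the window only, and letters outside it were not searched.

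Vegfa, the main angiogenic ligand of the family, had signals of the same order in all 3 wild-type samples and unequal ones in the tumors. Its brighter probe set, 1420909_at, read 967, 977 and 1229 in wild-type samples and 404, 1338 and 457 in tumors. Tumor replicate 2 was the highest of all 6 samples, and the other tumors were the lowest. The means were 1058 ± 149 (SD, n = 3) and 733 ± 525, and the log2 difference was -0.71 (SE 0.42, 95% interval -1.69 to 0.28, limma adjusted p = 0.249). Without tumor replicate 2 the log2 fold change was -1.23 and passed (limma adjusted p = 0.00902), and without tumor replicate 1 it was -0.40 (limma adjusted p = 0.528). The other Vegfa probe set, 1451959_a_at, of a type designed to match several transcripts of a gene, read 649, 492 and 560 against 133, 428 and 111. All tumors were below all wild-type samples there, and tumor replicate 2 was again the highest of the 3. Its log2 fold change of -1.43 (SE 0.42) just passed over the probe sets (limma adjusted p = 0.0471). That call did not survive leaving out any 1 sample other than tumor replicate 2 (limma adjusted p up to 0.139). Without tumor replicate 2 the log2 fold change was -1.95.

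Vegfb, a ligand of Flt1 and Nrp1, and Vegfc, the ligand of lymphatic growth, did not pass. Vegfb read 904, 1019 and 816 in wild-type samples and 1483, 1193 and 793 in tumors. Tumor replicates 1 and 2 lay above the wild-type range and tumor replicate 3 below it, and the log2 fold change was 0.29 (SE 0.24, 95% interval -0.27 to 0.85, limma adjusted p = 0.400). Vegfc was dim at its 3 probe sets, with wild-type signals from 59.0 to 170 and tumor signals from 34.2 to 276. At each of them tumor replicate 2 was the lowest tumor and tumor replicate 1 the highest, the reverse of the order at the brighter Vegfa probe set. The log2 fold change of its brightest probe set, 1439766_x_at, was 0.10 (SE 0.38, 95% interval -0.78 to 0.99, limma adjusted p = 0.864). At these signals the interval was wide, and a change in either direction within it cannot be told from no change.

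Pgf, placental growth factor, which binds Flt1, had 1 probe set, and it did not pass the filter. It read 15.2, 19.3 and 68.9 in wild-type samples and 20.5, 233 and 17.0 in tumors. Tumor replicate 2 alone reached a signal of 100, so Pgf shared its highest tumor with Vegfa and Angpt2.

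Angpt1, the activating ligand of Tek, read 170, 83.8 and 178 in wild-type samples and 126, 110 and 202 in tumors at probe set 1439066_at. The groups overlapped, and the log2 difference was 0.03 (SE 0.29, 95% interval -0.66 to 0.72, limma adjusted p = 0.949). The other Angpt1 probe set, 1421441_at, did not pass the filter: it read 39.3, 5.90 and 132 in wild-type samples and 10.5, 6.90 and 7.22 in tumors.

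Angpt2, the antagonist made by endothelial tip cells and by other cells under hypoxia, read 898, 1323 and 792 in wild-type samples and 269, 862 and 255 in tumors at probe set 1448831_at. As with Vegfa, tumor replicate 2 lay apart from the other tumors, here inside the wild-type range. The means were 1004 ± 281 (SD, n = 3) and 462 ± 346, and the log2 fold change of -1.25 (SE 0.45, 95% interval -2.31 to -0.19) did not pass (limma adjusted p = 0.0791, unadjusted p = 0.0265 in limma). Without tumor replicate 2 it was -1.78 and passed (limma adjusted p = 0.00654), and without 1 of the other samples it was between -1.40 and -0.97 and did not. The dimmer Angpt2 probe set, 1459636_at, was below 100 on every array, with 76.7, 88.6 and 96.7 in wild-type samples and 51.5, 71.3 and 24.3 in tumors. The log2 difference of Angpt2 to Angpt1 on the same array was 2.20, 3.55 and 1.97 in wild-type samples and 0.93, 2.66 and 0.30 in tumors. Its group difference of -1.28 had an exact 2-sided permutation p of 0.3, where 3 against 3 samples allow no p under 0.1, and tumor replicate 2 lay among the wild-type samples. Without tumor replicate 2 the difference was -1.96 and the groups did not overlap.

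**Figure D3:**
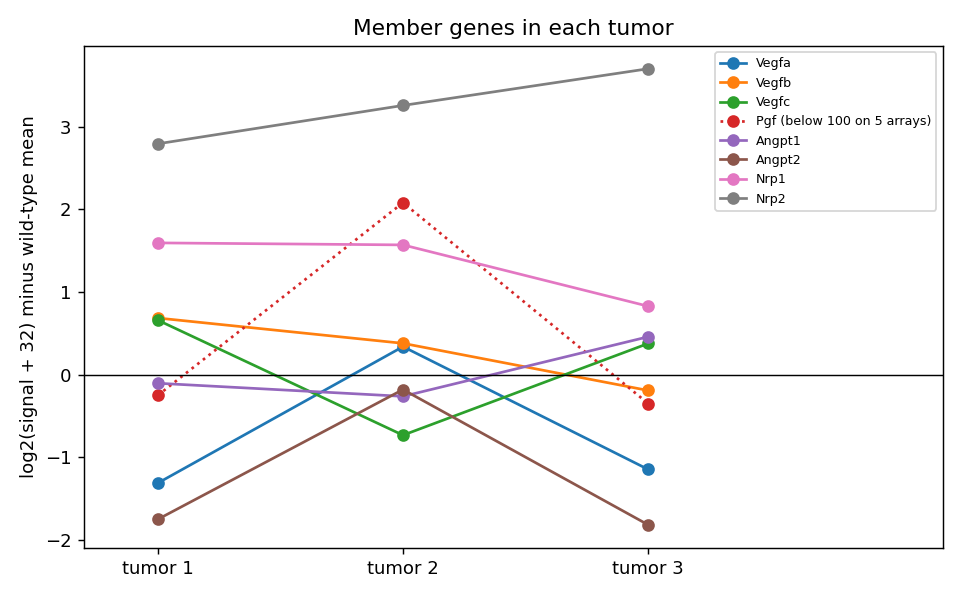
Log2(signal + 32) of the probe set standing for each gene in each tumor, minus the mean of the 3 wild-type samples; Pgf, dotted, was below 100 on 5 arrays and was not tested, and lines only join the values of a gene, since the tumors have no order. Vegfa and Angpt2 are at -1.31 and -1.75 in tumor replicate 1, at 0.34 and -0.18 in replicate 2 and at -1.15 and -1.82 in replicate 3, while Nrp2 is between 2.79 and 3.70 in all of them.

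Among the tested genes, tumor replicate 2 differed from the other tumors most at Vegfa, Angpt2 and Vegfc, a pattern seen in the data and described here without a test. Tumor replicate 2 exceeded the mean of the other tumors by 1.57 on the log2 scale for Vegfa and by 1.604 for Angpt2, and 61 and 56 of the 11611 genes tested had a larger such excess. Over all genes the median of that difference was 0.018 and the median of its size 0.20. For Vegfc the difference was -1.25, for Angpt1 -0.44, for Vegfb 0.13, for Nrp1 0.36 and for Nrp2 0.01. Pgf, which did not pass the filter, had a difference of 2.38. Tumor replicate 2 was no more distant from the other tumors over all genes than they were, with a median absolute log2 distance of 0.20, beside 0.245 for tumor replicate 1 and 0.277 for tumor replicate 3.

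The receptors of these ligands were dimmer in wild-type samples than in tumors at 4 of 5 genes. The test called 2 of the 5 higher and 0 lower, beside 14.5% and 12.6% of all genes tested. Of the 4 that did not depend on the tumors to pass the filter it called 1 higher, beside 13% of all such genes. Flt1, the VEGF receptor that binds Vegfa, Vegfb and Pgf, read 32.5, 10.6 and 26.9 in wild-type samples and 110, 217 and 236 in tumors. All wild-type arrays were below 100, so Flt1 passed the filter through the tumors alone and its call is no independent support; it was at least 1.78-fold higher in tumors. Tek, the angiopoietin receptor, read 113, 107 and 155 against 212, 186 and 264, with no overlap and a log2 difference of 0.69 (SE 0.19, limma adjusted p = 0.0342). The Tek call was lost without wild-type replicate 1 (adjusted p 0.122 in limma) or 2 or tumor replicate 1 or 3. The other 3 receptors are named after their values were seen. Kdr, the main signalling receptor for Vegfa, read 135, 203 and 266 against 276, 480 and 341 and did not pass (limma adjusted p = 0.0735), though its groups did not overlap. Tie1, an orphan partner of Tek, did not pass either (limma adjusted p = 0.143), nor did Flt4, the Vegfc receptor, at 430, 739 and 680 against 320, 543 and 217. Flt4 alone was below 0 on the log2 scale (-0.78, SE 0.34). Without tumor replicate 2, 1 of the receptor genes was called lower, where 9.01% of all genes tested were. Scaled to the hybridisation controls, 0 receptor genes were called higher and 1 lower, where 3.2% and 66.2% of all genes tested were. Flt1 was then at 0.25 and Tek at -0.19 on the log2 scale.

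Among 5 tested relatives of the ligands, 2 were called higher and 0 lower, beside 14.5% and 12.6% of all genes tested. Angptl1, an angiopoietin-like secreted protein gene, read 210, 239 and 189 against 3903, 3670 and 2437 (log2 difference 3.76, SE 0.21, limma adjusted p = 0.000198). Vegfd, the other ligand of lymphatic growth, read 209, 196 and 194 against 617, 517 and 312 (log2 difference 1.10, SE 0.24, limma adjusted p = 0.0167). Tumor replicate 2 did not stand apart at either gene. Scaled to the hybridisation controls, Vegfd was at 0.16 on the log2 scale and was not called (limma adjusted p = 0.687). Leaving out any of the wild-type samples ended the Vegfd call (limma adjusted p 0.0502 to 0.0568).

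Of 15 tested class 3 semaphorin and plexin genes, only some of which encode ligands or signalling partners of neuropilins, 3 were called higher and 2 lower. Of all genes tested, 14.5% were called higher and 12.6% lower. The median log2 fold change of the list was -0.04. Sema3e, which signals through Plxnd1 in vessels, read 59.5, 84.5 and 7.50 in wild-type samples and 648, 879 and 381 in tumors. It too passed the filter through the tumors alone, and it was at least 6.01-fold higher. Plxnd1, chosen after its values were seen, read 239, 321 and 423 against 710, 1049 and 496 (log2 fold change 1.09, SE 0.30, limma adjusted p = 0.0353), a call lost without any 1 sample other than wild-type replicate 3 or tumor replicate 3 (limma adjusted p up to 0.120). Sema3c, a neuropilin ligand, read 8682, 8005 and 8606 against 3618, 1115 and 3799 (log2 difference -1.75, SE 0.44, limma adjusted p = 0.0269). The lowest Sema3c value was that of tumor replicate 2. Leaving out any of the wild-type samples ended its call (limma adjusted p up to 0.0839). Sema3f, the semaphorin that binds Nrp2, was variable in both groups, at 55.3, 215 and 523 against 96.5, 843 and 404, and did not pass (limma adjusted p = 0.583); it too was chosen after its values were seen.

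Genes of hypoxia response, which induce or accompany Vegfa in many cells, were not higher in the tumors as a list. The test called 1 of 20 genes higher and 4 lower and left 15 uncalled, where 14.5% and 12.6% of all genes tested were called higher and lower. The median log2 fold change of the list was -0.57. Bnip3, a mitophagy gene induced by HIF, read 7077, 6256 and 8390 in wild-type samples and 2690, 5272 and 2473 in tumors (log2 fold change -1.13, SE 0.30, limma adjusted p = 0.0310). Ndrg1, a stress-response gene, read 198, 247 and 312 against 783, 752 and 432 (log2 fold change 1.25, SE 0.26, limma adjusted p = 0.0146). Hif1a, chosen after its values were seen, was lower in every tumor, with 13140, 9563 and 14342 against 5187, 5697 and 6237 (limma adjusted p = 0.00759). These are transcript signals, and the part of HIF in the Vegfa values was not tested. Tumor replicate 2 had the highest tumor signal at 12 of the 20 genes, where it did so at 30.4% of all genes tested. The glycolysis genes Ldha and Pgk1 were among them, both chosen after their values were seen: Ldha read 5899, 13883 and 6849 in tumors and Pgk1 read 2772, 9592 and 6210. Their wild-type means were 15462 ± 2899 and 12550 ± 2549 (SD, n = 3), so tumor replicate 2 came closest to the wild-type level, as it did for Vegfa. Without tumor replicate 2, 9 of the 20 hypoxia genes were called lower, where 9.01% of all genes tested were. Scaled to the hybridisation controls 15 were, where 66.2% of all genes tested were. The Bnip3 call was lost without any 1 other sample (limma adjusted p up to 0.0969), and that of Ndrg1 when wild-type replicate 1 was left out (limma adjusted p = 0.0601).

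**Figure D4:**
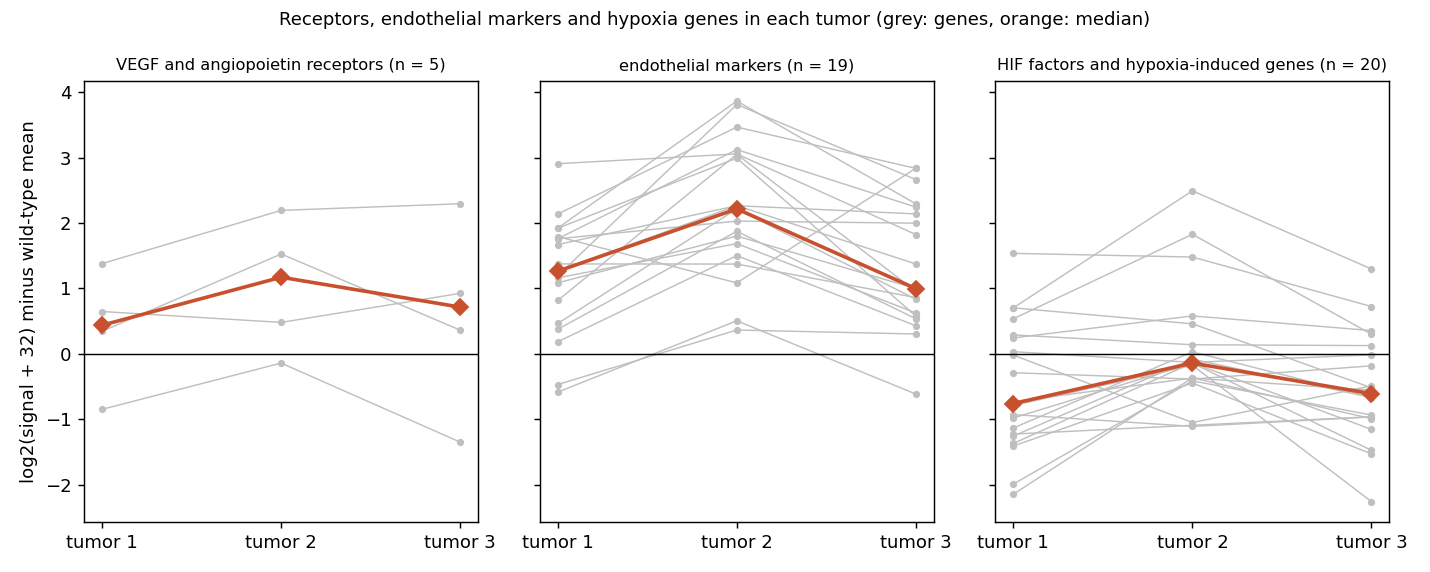
Log2(signal + 32) minus the wild-type mean in each tumor for 5 receptor genes, 19 endothelial markers and 20 genes of HIF and hypoxia response, with grey lines for genes and an orange line for their median. The endothelial median is 1.26, 2.22 and 1.00 in tumor replicates 1 to 3, and the hypoxia median is -0.76, -0.14 and -0.61, so both are highest in replicate 2.

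Endothelial markers also moved with the groups and with tumor replicate 2. The test called 11 of 19 higher and 0 lower. Of the 15 that did not pass the filter through the tumors alone it called 8, where 13.0% of the 11384 such genes were higher. The summed signal of the list was 4819 to 6367 in wild-type samples, 10738 in tumor replicate 1, 23639 in replicate 2 and 12805 in replicate 3. Of the markers, 4 were below 100 on all wild-type arrays, among them Vwf, and 0 were so on all tumor arrays. Sox18, an endothelial transcription factor gene, was higher by 2.81 on the log2 scale (SE 0.32). Vwf, the von Willebrand factor gene, read 48.8, 15.1 and 96.4 against 267, 1116 and 354 and was at least 4.72-fold higher. Tumor replicate 2 had the highest tumor signal at 17 of the 19 markers. Of 20 tested genes of vessel sprouting and its modulators, 8 were called higher and 1 lower, beside 14.5% and 12.6% of all genes tested. Of the 19 that did not pass the filter through the tumors alone, 7 were called higher, beside 13.0% of all such genes. Hes1, a Notch target gene, rose by 1.58 (SE 0.28) and Cxcl12, a chemokine gene, by 1.66 (SE 0.33), both on the log2 scale. Thbs1, an inhibitor of angiogenesis, was the gene called lower, a call lost without any 1 sample other than tumor replicate 3 (limma adjusted p 0.0518 to 0.0762). The related gene Thbs2 of the same list, chosen after its values were seen, went the other way and was called higher. Its signals were 193, 186 and 232 in wild-type samples, beside 487, 560 and 812 in tumors. A direction of angiogenesis inhibitors as a set was not tested. The tip cell genes Apln and Dll4, chosen after their values were seen, did not pass: Apln read 374, 307 and 446 against 177, 1826 and 327, and Dll4 read 109, 136 and 117 against 40.4, 398 and 193. Both were highest in tumor replicate 2, as Vegfa, Angpt2 and Pgf were.

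Neuropilins are also made by cells around vessels, and markers of such cells were higher in the tumors. For the counts below, 14.5% of all genes tested were called higher and 12.6% lower. All 12 tested pericyte and smooth muscle markers were called higher, 3 of which passed the filter through the tumors alone. Rgs5, a pericyte gene, was higher by 3.73 and Cnn1, a smooth muscle gene, by 2.73 on the log2 scale. The list had a summed signal of 4852 to 6338 in wild-type samples and 17856 to 34664 in tumors. All 11 tested macrophage markers were called higher, 1 of which passed through the tumors alone. The complement genes C1qa and C1qc were higher by 3.24 and 3.50 on the log2 scale, and the sum went from 2231 to 2675 in wild-type samples to between 13503 and 16493 in tumors. Of 10 fibroblast markers 8 were called higher and 1 lower, with Postn at 3.57, Lum at 2.90 and Fbln1 at -1.69 on the log2 scale and sums of 23497 to 27295 and 47082 to 69650. Of 3 lymphatic endothelial markers 1 was called higher and 0 lower, with sums of 1842 to 2499 and 1161 to 1748. These sums were mostly Pdpn, at 1685, 2207 and 1229 in wild-type samples and 1322, 731 and 1151 in tumors. Lyve1 was at -0.01 on the log2 scale. The marker called higher was Prox1, which passed through the tumors alone and was not called without wild-type replicate 1 (limma adjusted p = 0.0574) or 2. Of 5 theca markers 2 were called higher and 1 lower, with Gli1, a hedgehog target gene, at least 6.24-fold higher and Cyp17a1, the androgen synthesis gene, at -4.85 on the log2 scale, and with sums of 45574 to 54117 and 31436 to 71242. Gli1 passed the filter through the tumors alone, and of the other 4 theca markers tested 1 was called higher and 1 lower. Among the tumors, the macrophage sum was highest in replicate 1, the pericyte and fibroblast sums in replicate 2 and the theca sum in replicate 3, where Nrp2 was also highest. That theca sum was mostly Hsd3b1 and Ptch1, at 43115 and 27114 in tumor replicate 3. Cyp17a1, Gli1 and Star were lowest in that tumor. The median of the theca list, as log2 against the wild-type mean, was lowest there too, at 0.83, 0.50 and 0.07 in tumor replicates 1 to 3. Single markers differed from their lists: Postn, a matrix protein gene of the fibroblast list, read 1122, 1236 and 3385 in tumors, in the order of Nrp2. Scaled to the hybridisation controls, 8 endothelial, 9 pericyte and smooth muscle, 7 macrophage and 5 fibroblast markers were still called higher, while 0 genes of the sprouting list were. Under that scaling 3.2% of all genes tested were called higher and 66.2% lower. The part of these cell types in the neuropilin and ligand values was not tested.

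Genes whose gene-centred log2 values over the 6 arrays were nearest to those of each tested gene were found by root mean square distance. Nearest to Vegfa were Ak4 (distance 0.16) and Marchf10 (0.17). Ak4 read 1008, 805 and 1113 in wild-type samples and 465, 1382 and 394 in tumors, with the same high tumor as Vegfa. Nearest to Angpt2 were Fam71e1 (0.17) and Grhl2 (0.18), the latter at 138, 169 and 151 against 16.4, 115 and 18.4. Nearest to Nrp1 were Adgra2 (0.095) and Gpsm3 (0.10), and nearest to Nrp2 were Osr2 (0.14) and AI467606 (0.15). Osr2 read 159, 137 and 115 against 967, 1598 and 2574, with its tumors in the same order as those of Nrp2. Nearest to Vegfb were Gnb2 (0.057) and Ubqln4 (0.065), to Vegfc Hoxc6 (0.16) and Cryl1 (0.18), and to Angpt1 Rnf185 (0.069) and Nabp1 (0.095). With 6 arrays in 2 groups these distances describe the samples and carry no test.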

How the data were processed

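Total RNA of 6 samples was hybridised to Affymetrix arrays. The deposited values are linear intensity values, 1 per probe set and array, made by the authors with MAS5 (wild-type) or GCOS (tumor), per the submitters' processing notes; the sources used here give no versions. Each array was scaled to a trimmed mean of 500 (2% left out at each end), and the deposited values without it gave the same 1686 and 1468 calls. Genes were named from GEO's platform annotation, with symbols updated through Entrez identifiers (0 changed). Of 45101 probe sets, 34945 had 1 symbol, 932 several and 9160 none, besides 64 controls. Values were tested as log2(signal + 32), which understates changes of dim genes, by 2-sided moderated tests (limma 3.58.1 under R 4.3.3). The genes and lists were chosen with earlier results of these data known. Beyond the 8 genes, the text names from each list the 2 called genes of largest change and the largest called in the other direction, plus the 2 nearest patterns, and says where a gene was chosen after its values were seen. Where the dimmer group was below 100 on all arrays, the fold is a bound against 100. On simulated data for 11611 genes, 86 of 100 changes of size 2 and 46 of 100 of size 1 (log2) were called, with 3 false calls. Only 200 genes were changed in that simulation, with normal noise, where 3154 genes were called in the data. These rates thus check the code and need not hold for the data. P-values measure the spread between these samples. Alternatives changed the pseudocount, filter, scaling, variance model, probe set choice, replicate block and samples.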

Additional observations from a re-analysis of the deposited data

How the results depend on the processing

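Over 16 alternatives, Nrp2 was called higher in all 16, with log2 fold changes of 2.28 to 3.48, and Nrp1 in all but the scaling to hybridisation controls. Under that scaling 1 of the 8 genes was higher and 3 lower, 6 probe sets were lower, 8178 genes in all were called (377 higher and 7801 lower, beside 1686 and 1468), and the log2 fold changes of Vegfb (-0.72), Vegfc (-0.72; probe set 1440739_at -0.69), Angpt1 (-0.82), Nrp1 probe set 1457198_at (-0.49) and Tek (-0.19) turned negative, all above or near the shift of -1.0 in the median of all genes. Leaving out 1 sample at a time, between 0 and 2 of the 8 genes were lower, the 2 without tumor replicate 2, and between 0 and 3 probe sets; the number of genes called ranged from 1528 (without wild-type replicate 1; 1972 without replicate 3) to 3113, and log2 fold changes from -0.18 to 0.52 for Vegfc, from -0.25 to 0.18 for Angpt1, from -0.38 to 0.39 for Vegfc probe set 1440739_at and from -0.57 to 0.19 for 1419417_at. With a pseudocount of 1, or with no filter, 0 probe sets were lower. With the mean of all passing probe sets, Vegfc was at -0.0088. The replicate numbers of the labels did not pair the samples: deviations of same-numbered samples correlated at -0.045, 0.028 and 0.090. With the number as a replicate block, 1 gene was lower, Angpt2 (limma adjusted p = 0.0261), and 2602 genes were called in place of 3154. The change of Angpt2 relative to Angpt1 was negative in all 11 alternatives run, and that of Nrp2 relative to Nrp1 positive. Dim signals limit Vegfc, Angpt1 and Pgf: their probe sets lay near or below 100.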
